A study of Mus musculus with 8 samples.

Results

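The organ difference of a gene, its level in T cells of the kidney minus that in T cells of the spleen, was compared between CD8+ and CD4+ cells of lupus-prone mice. On the log2(level + 1) scale the quantity was kidney CD8+ minus spleen CD8+, minus the same subtraction in CD4+ cells, and it is called here the difference of organ differences. A positive value means that kidney minus spleen, taken with its sign, was greater in CD8+ cells, and a negative value that it was greater in CD4+ cells. All 8 of the 8 libraries entered it, 2 for each of 4 groups, and 10845 of the 13341 genes listed reached a level of 10 in 2 or more libraries. A level is a library's reads of a gene divided by 1 scaling factor for that library, so that 1 read was worth between 0.554 and 1.04.

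The 4 groups were CD44hi CD4+ and CD44hi CD8+ T cells sorted from the kidney, and cells of the same kinds sorted from the spleen. All came from MRL/lpr mice at 14 weeks of age, and no treatment is named. The MRL/lpr strain develops spontaneous lupus-like nephritis and carries the lpr mutation of the death receptor gene Fas, which all 4 groups share, so that no group stands for a mouse without the disease. The labels do not say whether the replicates were separate mice or pools, and p-values therefore measure the spread between libraries, which may be technical.

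T cells that enter a non-lymphoid organ can lose the receptors that return them to blood and lymph and take up a resident programme, with adhesion molecules, inhibitory receptors and feedback regulators of cytokine signals. CD8+ cells are known for killing through granzymes and perforin, and CD4+ cells for help delivered by cytokines and membrane-bound ligands. In lupus nephritis both kinds accumulate around vessels and tubules of the kidney.

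Libraries held between 7477544 and 11169003 reads, with 10544 to 12103 genes at 1 read or more, and the sorted lineages were clear: Cd4 stood at 1365 to 2224 in the 4 CD4+ libraries and at 0 to 17.8 in the CD8+ libraries. Cd8a, a chain of the CD8 co-receptor, stood at 12159 to 18556 in the 4 CD8+ libraries and at 1.11 to 103 in the CD4+ libraries. Cd44, the gene of the sorting gate, was present in all 8 libraries, at 182 to 1563. The kidney CD4+ pair stood apart: over 4691 genes the log2 difference of its replicates had an SD of 1.56, against 0.650 for kidney CD8+ cells and 0.452 and 0.435 for spleen CD4+ and CD8+ cells. Values with each kidney CD4+ library alone are therefore given for the genes and lists that the results turn on.

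No gene passed the test in limma at an adjusted p below 0.05, with 0 genes higher (0%) and 0 lower (0%). At an unadjusted p below 0.05 there were 362 of 10845 genes (3.34%), of which 235 had a positive difference (2.17%) and 127 a negative one (1.17%). The quasi-likelihood test of edgeR on the reads also called 0 genes (0%), with 319 at an unadjusted p below 0.05 (2.94%). DESeq2 on the same reads called 12 genes, 7 higher (0.0645%) and 5 lower (0.0461%), with 451 at an unadjusted p below 0.05 (4.16%). In each method the unadjusted share was below what a threshold of 0.05 gives by itself where no gene differs. The genes below are accordingly described by their values, and each limma adjusted p for the pooled comparison was 0.999.

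A gene is said to hold where its difference had the same sign and a size of at least 1 with kidney CD4+ replicate 1 alone and with replicate 2 alone. That was the case for 1674 genes (15.4%), 797 of them positive (7.35%) and 877 negative (8.09%). The sign was the same in all 16 ways of taking 1 library per group for 1676 genes (15.5%), 1001 positive (9.23%) and 675 negative (6.22%). Both holding and an unadjusted p below 0.05 applied to 228 positive (2.1%) and 127 negative (1.17%) genes, 355 in all. Over all genes tested, the median difference was 0.11 and the quartiles were -0.51 and 0.73.

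In all 5 marker genes the organ difference was larger in size in CD8+ than in CD4+ cells, and in Fcgrt alone of the 5 it was opposite in sign with a size over 1 in both lineages. Litaf, Qpct and Cish were much higher in kidney than in spleen CD8+ cells, while Tnfsf8 and Fcgrt were lower there. All 5 held with each kidney CD4+ library and kept 1 sign in all 16 choices of libraries. All 5 were among the 12 genes called by DESeq2. The markers were chosen with this difference known, so that their holding and these calls describe them and are no independent support.

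Litaf, on mouse chromosome 16 (mm9, 10959368 to 11066250, minus strand), encodes a protein of late endosomes and lysosomes. Its level was 3006 and 3393 in kidney CD8+, 1188 and 647 in kidney CD4+, 289 and 323 in spleen CD4+, and 199 and 238 in spleen CD8+ cells. Both kidney CD8+ libraries lay above all others and both spleen CD8+ libraries below them, and no groups overlapped. Kidney minus spleen was 3.87 ± 0.38 (SE, log2) in CD8+ cells and 1.52 ± 0.38 in CD4+ cells. The difference was 2.35 ± 0.54 (unadjusted p = 0.00219 in limma, adjusted p = 0.0144 in DESeq2), with 1.91 for kidney CD4+ replicate 1 alone and 2.79 for replicate 2 alone.

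Qpct (chromosome 17, 79451246 to 79489583, plus strand) encodes glutaminyl cyclase, which converts N-terminal glutamine of peptides, chemokines among them, to pyroglutamate. It stood at 729 and 915 in kidney CD8+ cells, against 25.6 and 42.0 in spleen CD8+, 11.3 and 21.9 in kidney CD4+, and 7.76 and 21.6 in spleen CD4+ cells. Kidney CD8+ cells alone held it at a high level, and the organs overlapped in CD4+ cells. The organ difference was 4.60 ± 0.67 in CD8+ and 0.25 ± 0.67 in CD4+ cells, a difference of 4.34 ± 0.94 (adjusted p = 0.00979 in DESeq2), with 4.79 and 3.90 for the replicates alone.

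Cish (chromosome 9, 107198357 to 107205115, plus strand) encodes a suppressor of cytokine and T cell receptor signals that cytokines induce through STAT5. Its level was 1243 and 1452 in kidney CD8+, 1649 and 523 in kidney CD4+, and 1295 and 731 in spleen CD4+ cells, but 146 and 107 in spleen CD8+ cells. Spleen CD8+ cells lay below the other 3 groups, which overlapped one another. Kidney minus spleen was 3.41 ± 0.56 in CD8+ and -0.07 ± 0.56 in CD4+ cells, and the difference was 3.48 ± 0.79 (adjusted p = 0.0144 in DESeq2), with 2.65 and 4.31 for the replicates alone.

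Tnfsf8 (chromosome 4, 63492342 to 63522381, minus strand) encodes CD30 ligand, a membrane-bound cytokine of the TNF family. Levels were 724 and 900 in kidney CD4+ and 601 and 504 in spleen CD4+ cells, compared with 123 and 208 in spleen CD8+ and 28.0 and 23.1 in kidney CD8+ cells. Kidney CD4+ cells were the highest and kidney CD8+ cells the lowest, with no overlap between any groups. The organ difference was -2.61 ± 0.41 in CD8+ and 0.55 ± 0.41 in CD4+ cells, and the difference between them was -3.16 ± 0.59 (adjusted p = 0.00215 in DESeq2), with -3.002 and -3.32 for the replicates alone.

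Fcgrt (chromosome 7, 52348363 to 52359192, minus strand) encodes the heavy chain of the neonatal Fc receptor, which recycles IgG and albumin. It stood at 634 and 814 in spleen CD8+ cells, far above 83.2 and 70.9 in kidney CD8+, 111 and 28.1 in kidney CD4+, and 20.5 and 30.2 in spleen CD4+ cells. Spleen CD8+ cells lay above all others, while the CD4+ groups overlapped. The organ difference was -3.21 ± 0.65 in CD8+ and 1.14 ± 0.65 in CD4+ cells, opposite in sign, and their difference was -4.35 ± 0.93 (adjusted p = 0.00123 in DESeq2), with -5.33 and -3.38 for the replicates alone.

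**Figure D1:**
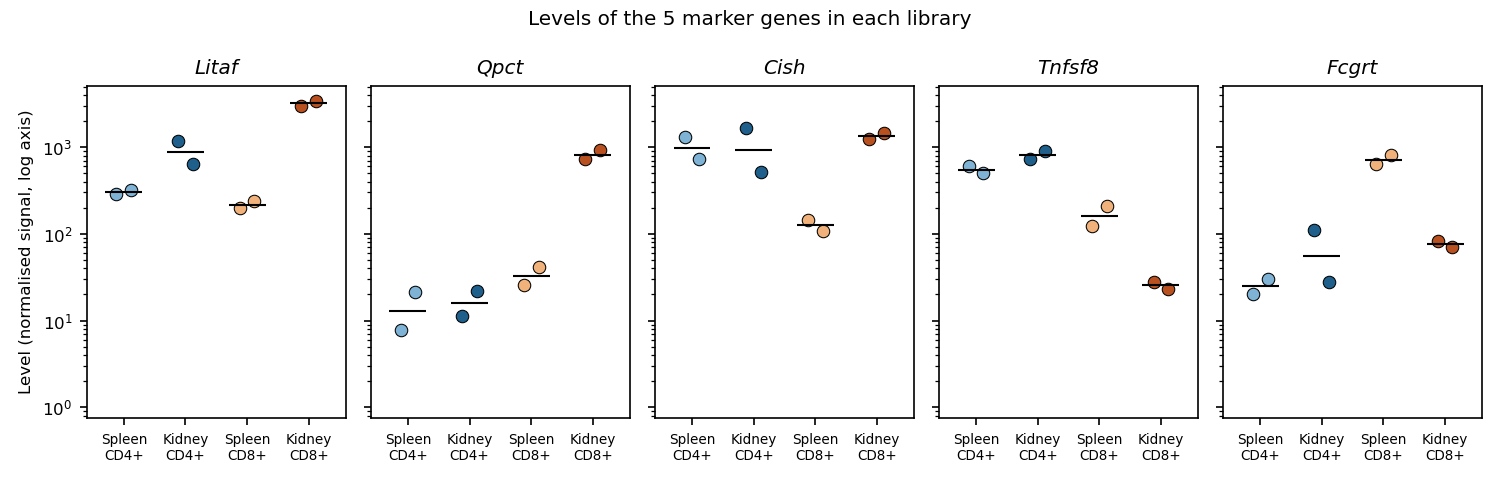
Levels (normalised signal, log axis) of Litaf, Qpct, Cish, Tnfsf8 and Fcgrt in each of the 8 libraries, with 2 points per group and a bar at their mean on the log2(level + 1) scale. Qpct is high in kidney CD8+ cells alone, at 729 and 915, and Fcgrt in spleen CD8+ cells alone, at 634 and 814.

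Stretches next to the start of 3 of the named genes are shown because they carry motifs of transcription factors known in T cells and antigen-presenting cells. The letters are from RefSeq (GRCm38.p6), and each matched mm9 once on its chromosome. Capitals mark TTCNNNGAA (STAT) in Cish, TGTGGT (RUNX) and TGANTCA (AP-1) in Gzmb, and TGACGTCA (cAMP response element) in H2-Aa, searched on both strands. Positions in mm9 are chr9:107198910-107199009 (plus strand) for Cish, chr14:56881172-56881281 (minus strand) for Gzmb and chr17:34424769-34424878 (minus strand) for H2-Aa. The Cish stretch runs from 80 bases before to 20 after the RefSeq start, which lies inside the gene as annotated in mm9, and the others are the 110 bases before the start.
Cish: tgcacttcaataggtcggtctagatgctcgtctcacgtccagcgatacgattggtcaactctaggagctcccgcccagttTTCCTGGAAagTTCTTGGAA
Gzmb: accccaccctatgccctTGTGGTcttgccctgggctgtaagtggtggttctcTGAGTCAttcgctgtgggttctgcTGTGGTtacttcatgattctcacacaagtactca
H2-Aa: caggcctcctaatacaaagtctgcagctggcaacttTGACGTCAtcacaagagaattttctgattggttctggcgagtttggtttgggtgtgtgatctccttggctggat

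Over 32851 RefSeq windows of 300 bases (250 before and 50 after the start), 8.3% held the STAT motif, 7.81% AP-1, 16.8% RUNX and 1.79% the cAMP response element. Of the 24 genes with the smallest p described below, 18 had a window, and 2, 2, 6 and 2 of these held the respective motifs. A gene with several starts has several windows and was counted where any of them matched. The gene counts are therefore not on the same footing as the shares of single windows. A match is a description of letters, and no binding was measured.

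Among the 355 genes that held with an unadjusted p below 0.05, the organ difference was opposite in sign and over 1 in size in both lineages in 76 with a positive difference (21.4%) and 37 with a negative one (10.4%). Among the others it was larger in size in CD8+ cells in 88 positive (24.8%) and 59 negative (16.6%) genes, and larger in CD4+ cells in 64 positive (18%) and 31 negative (8.73%) genes. Over all genes tested, 297 were opposite (2.74%), 5432 larger in CD8+ (50.1%) and 5116 larger in CD4+ cells (47.2%). Since p and the class come from the same fit, these shares are a description. A further description, defined after the values were seen, is which group had both libraries beyond all 6 others. Spleen CD8+ cells alone being the lowest was the commonest such pattern among the 355, with 49 genes (13.8%, against 5.04% of all genes tested). Kidney CD4+ cells alone were the lowest in 34 (9.58%, against 2.69%) and the highest in 30 (8.45%, against 3.52%). Spleen CD8+ cells alone were the highest in 17 (4.79%, against 4.12%).

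**Figure D2:**
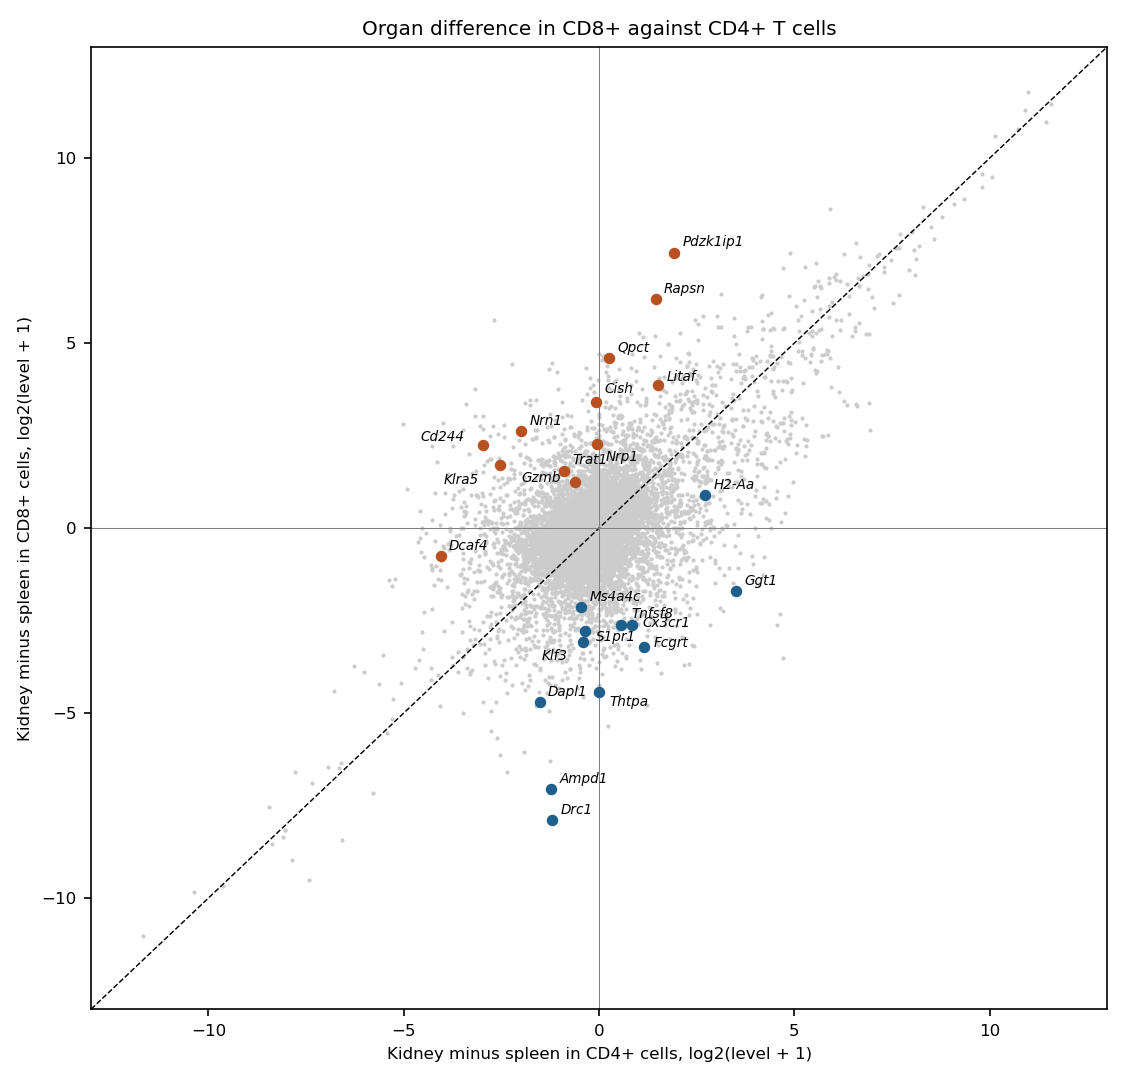
Kidney minus spleen in CD8+ cells (vertical) against kidney minus spleen in CD4+ cells (horizontal), both on the log2(level + 1) scale, for the 10845 genes tested in grey and for 12 positive (orange) and 12 negative (blue) named genes. Distance from the dashed line of equal values is the difference of organ differences, with Qpct (4.60 against 0.25) above it and Fcgrt (-3.21 against 1.14) below it.

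The 12 positive and 12 negative genes with the smallest p that held and averaged at least 100 in their highest group include the 5 markers. In 3 of the 12 positive and 2 of the 12 negative genes the organ difference was opposite in sign with a size over 1 in both lineages. Of the others, 8 positive and 9 negative genes had the larger organ difference in CD8+ cells and 1 in each direction had it in CD4+ cells. Spleen CD8+ libraries were both the lowest in 7 of the positive genes and both the highest in 8 of the negative ones. As the only group apart, spleen CD8+ cells were the lowest in 5.04% and the highest in 4.12% of all genes tested. These shares leave out genes in which another group was apart as well, which the counts of 7 and 8 include. The named genes were also picked by p and holding of the same difference, so that these counts are a description.

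Gzmb, Cd244 and Klra5, among the 12 positive genes, are known from cytotoxic cells. Gzmb, which encodes the death-inducing protease granzyme B, stood at 17598 and 16917 in kidney CD8+ and 7274 and 7190 in spleen CD8+ cells, and at 1705 and 1940 in kidney CD4+ and 2356 and 3248 in spleen CD4+ cells. It was higher in the kidney in CD8+ cells and lower there in CD4+ cells, with no overlap in either, and the difference was 1.86 ± 0.49 (1.95 and 1.77 for the replicates alone). Gzmk, another granzyme and outside the 12, stood at 6039 and 5481 in kidney CD8+ cells, against 2460 and 2728 in spleen CD8+, 1477 and 2311 in kidney CD4+, and 1973 and 2711 in spleen CD4+ cells. Only the kidney CD8+ libraries stood apart for Gzmk, and its difference was 1.47 ± 0.52.

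Cd244 encodes the receptor 2B4 of natural killer and activated CD8+ cells. It stood at 355 and 222 in kidney CD8+, 49.8 and 68.8 in spleen CD8+, 25.5 and 8.63 in spleen CD4+, and 0 and 3.12 in kidney CD4+ cells. The lineages were further apart in the kidney than in the spleen, and the organ difference was 2.24 ± 0.88 in CD8+ and -2.98 in CD4+ cells. The Cd244 difference was 6.24 and 4.20 with the kidney CD4+ replicates alone. Klra5, a killer lectin-like receptor, showed the same order, with 163 and 111 in kidney CD8+, 47.1 and 35.3 in spleen CD8+, 3.33 and 6.90 in spleen CD4+, and 0 in both kidney CD4+ libraries. A count of 0 allows up to 3 reads, a level of 1.66 to 3.12 depending on the library, so that the fitted size for Klra5 depends on the pseudocount. Both kidney CD4+ replicates, at 0, gave the same value for Klra5, so that its holding is no separate check. Killer lectin-like genes have close copies, so the reads of Klra5 may be shared with them. Markers of natural killer cells summed to 17375 to 19521 in kidney CD8+ and 11971 to 12810 in spleen CD8+ cells, against 2554 to 3741 in kidney CD4+ and 1402 to 1421 in spleen CD4+ cells. Of that list's defining members, Ncr1 stood at 24.6 and 0 in kidney CD8+ and at 0 in both spleen CD8+ libraries, and Klrb1c at 5.09 to 33.4 in the 4 CD8+ libraries. Both were highest in kidney CD4+ replicate 1, Ncr1 at 113 and Klrb1c at 57.1. In kidney CD4+ replicate 2 they stood at 0 and 12.5, and in spleen CD4+ cells Ncr1 stood at 15.5 and 0 and Klrb1c at 16.1 and 0.863. The part of other cells in these results was not tested.

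Several positive genes had spleen CD8+ cells as the lowest group. Nrp1 encodes neuropilin-1, a receptor of semaphorins also found on regulatory T cells. It stood at 795 and 499 in kidney CD4+ and 707 and 606 in spleen CD4+ cells, which overlapped, and at 56.0 and 50.1 in kidney CD8+ against 12.1 and 8.59 in spleen CD8+ cells. The organ difference was thus 2.27 ± 0.44 in CD8+ and -0.06 ± 0.44 in CD4+ cells, a difference of 2.32 ± 0.63. Trat1, an adaptor of the T cell receptor, stood at 158 and 115 in kidney CD8+, 39.1 and 52.5 in spleen CD8+, 148 and 129 in kidney CD4+, and 254 and 260 in spleen CD4+ cells. It was higher in the kidney in CD8+ and lower there in CD4+ cells, with a difference of 2.44 ± 0.60.

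Nrn1, which encodes neuritin, a small membrane-anchored protein, also differed in sign, with an organ difference of 2.61 in CD8+ and -1.99 in CD4+ cells. Its level was 850 and 691 in spleen CD4+ and 525 and 69.7 in kidney CD4+ cells, against 165 and 164 in kidney CD8+ and 33.7 and 20.1 in spleen CD8+ cells. The kidney CD4+ replicates differed widely, and the difference of 4.61 ± 1.16 was 3.16 with replicate 1 alone and 6.05 with replicate 2 alone. Rapsn, known for clustering acetylcholine receptors at the muscle synapse, stood at 119 and 85.6 in kidney CD8+, 51.5 and 90.5 in kidney CD4+, 13.9 and 42.3 in spleen CD4+, and 0 and 0.955 in spleen CD8+ cells. It was higher in the kidney in both lineages and nearly absent from spleen CD8+ libraries, where the fitted size depends on the pseudocount.

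Pdzk1ip1 encodes a small membrane protein that is abundant in tubule epithelium. It stood at 277 and 419 in kidney CD8+, 84.6 and 866 in kidney CD4+, 83.7 and 59.5 in spleen CD4+, and 0 and 2.86 in spleen CD8+ cells. The kidney libraries were higher in CD8+ cells. In CD4+ cells kidney replicate 1 was close to the spleen, and only replicate 2 was clearly higher. The difference was 5.51 ± 1.51, with 7.18 and 3.84 for the replicates alone. With spleen CD8+ cells near 0, its size depends on the pseudocount. Proximal tubule markers summed to 9084 and 33013 in kidney CD8+ and 13042 and 26258 in kidney CD4+ cells, against 428 to 556 in spleen CD4+ and 211 to 333 in spleen CD8+ cells. The part of tubule RNA in the Pdzk1ip1 values was not tested.

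Dcaf4, a substrate adaptor of a ubiquitin ligase, was the 1 positive gene of the 12 whose organ difference was larger in CD4+ cells. It stood at 13.4 and 7.28 in kidney CD4+, against 216 and 152 in spleen CD4+, 120 and 169 in kidney CD8+, and 204 and 284 in spleen CD8+ cells. Kidney CD4+ libraries alone were low, and the organ difference was -4.06 ± 0.51 in CD4+ and -0.75 ± 0.51 in CD8+ cells (difference 3.30 ± 0.72).

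On the negative side, Dapl1, S1pr1 and Klf3 were from the list of lymphoid recirculation. Dapl1, known from resting T cells, stood at 1331 and 1362 in spleen CD8+ and 43.3 and 59.4 in kidney CD8+ cells, against 149 and 210 in spleen CD4+ and 34.5 and 107 in kidney CD4+ cells. It was lower in the kidney in both lineages without overlap, by -4.70 ± 0.56 in CD8+ and -1.52 ± 0.56 in CD4+ cells, a difference of -3.18 ± 0.79. S1pr1, the sphingosine-1-phosphate receptor through which T cells leave tissue, stood at 102 and 143 in kidney CD8+ cells, against 731 and 942 in spleen CD8+, 999 and 331 in kidney CD4+, and 729 and 739 in spleen CD4+ cells. Kidney CD8+ libraries alone were low, and the difference was -2.42 ± 0.74, with -3.22 and -1.63 for the replicates alone.

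Klf3, a Krüppel-like repressor, stood at 14.4 and 27.8 in kidney CD8+ and 152 and 203 in spleen CD8+ cells, with 78.2 and 62.4 in kidney CD4+ and 88.1 and 99.2 in spleen CD4+ cells. Kidney CD8+ cells were the lowest and spleen CD8+ cells the highest, and the difference was -2.66 ± 0.74. Ms4a4c, a tetraspan membrane protein, followed the same order, with 185 and 210 in kidney CD8+, 308 and 403 in kidney CD4+, 427 and 544 in spleen CD4+, and 910 and 829 in spleen CD8+ cells (difference -1.68 ± 0.49). Thtpa, a thiamine triphosphatase, stood at 3.40 and 30.1 in kidney CD8+ and 197 and 318 in spleen CD8+ cells, with 104 and 30.2 in kidney CD4+ and 82.6 and 38.8 in spleen CD4+ cells. The organs overlapped in CD4+ cells only, and the Thtpa difference was -4.41 ± 1.40.

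Drc1, of the dynein regulatory complex of cilia, and Ampd1, an AMP deaminase, were seen almost only in spleen CD8+ cells. Drc1 stood at 261 and 218 there, at 0 and 4.31 in spleen CD4+ cells and at 0 in all 4 kidney libraries. Ampd1 stood at 128 and 138 in spleen CD8+ cells, at 4.43 and 0 in spleen CD4+ cells and at 0 in all 4 kidney libraries. With 0 reads in both kidney groups, the fitted differences of these genes rest on the pseudocount and are plotted only. Both genes passed the level filter through spleen CD8+ cells alone. The 2 kidney CD4+ replicates, at 0, gave the same value, so that their holding is no separate check. Their unadjusted p was 0.312 and 0.370 in DESeq2, and 0.9997 and 0.9995 in edgeR. Both count among the 8 negative genes with spleen CD8+ libraries highest.

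Cx3cr1, the fractalkine receptor of effector T cells and of monocytes and macrophages, stood at 168 and 221 in spleen CD8+, 20.4 and 45.5 in kidney CD8+, 126 and 69.7 in kidney CD4+, and 54.9 and 48.3 in spleen CD4+ cells. It was lower in the kidney in CD8+ cells and higher there in CD4+ cells, without overlap, with a difference of -3.47 ± 0.81. Ggt1, a gamma-glutamyl transferase of tubules and activated lymphocytes, stood at 123 and 191 in spleen CD8+, 30.6 and 70.1 in kidney CD8+, 137 and 43.7 in kidney CD4+, and 4.99 and 6.90 in spleen CD4+ cells. Its organ difference was opposite in sign, -1.70 ± 0.74 in CD8+ and 3.51 ± 0.74 in CD4+ cells. Of 25 proximal tubule markers tested, 0 positive and 1 negative (Ggt1 itself) had an unadjusted p below 0.05 (2.17% and 1.17% over all genes). Their part in the Ggt1 values was not tested.

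H2-Aa, the alpha chain of an MHC class II molecule (chromosome 17, 34406276 to 34424772, minus strand), stood at 7394 and 7220 in kidney CD4+ cells, against 2041 and 1213 in kidney CD8+, 1177 and 1047 in spleen CD4+, and 815 and 889 in spleen CD8+ cells. It was higher in the kidney in both lineages without overlap, by 2.72 in CD4+ and 0.89 ± 0.36 in CD8+ cells, and the difference was -1.83 ± 0.51. Its partner H2-Ab1 stood at 4507 and 2835 in kidney CD4+ and 1013 and 544 in kidney CD8+ cells, against 553 and 317 in spleen CD4+ and 304 and 453 in spleen CD8+ cells (difference -2.09 ± 0.67). Markers of dendritic cells and MHC class II summed to 16422 and 28123 in kidney CD4+, 4532 and 7168 in kidney CD8+, 5884 and 6703 in spleen CD4+, and 3757 and 4670 in spleen CD8+ cells, with 8 of 8 tested below 0 in difference. Macrophage markers summed to 14637 and 16035, 4795 and 6554, 7510 and 7575, and 3805 and 4897 in the same groups, with 15 of 21 tested below 0. C1qb, a complement gene of macrophages, stood at 2036 and 2256 in kidney CD4+, 429 and 356 in kidney CD8+, 216 and 290 in spleen CD4+, and 33.0 and 73.5 in spleen CD8+ cells. C1qb was thus higher in the kidney in both lineages. Csf1r stood at 65.5 and 84.3 in kidney CD4+, 0.849 and 2.31 in kidney CD8+, 27.7 and 10.4 in spleen CD4+, and 0 and 3.82 in spleen CD8+ cells. Of the 21 macrophage markers tested, 6 lay above 0 in difference, among them Fcer1g at 1.39 ± 0.75. The median difference was -0.87 for the dendritic and class II list and -0.26 for the macrophage list, against 0.11 over all genes. As the all-gene quartiles were -0.51 and 0.73, a large minority of all genes also lay below 0. Members that define dendritic cells did not follow the sum. Itgax stood at 3.52 and 14.6 in kidney CD4+ and 13.6 and 57.8 in kidney CD8+ cells. Xcr1 stood at 69.1 and 25.0 against 11.9 and 64.8, and Siglech at 0 in every kidney library. The part of dendritic cells and macrophages in the H2-Aa, H2-Ab1 and Cx3cr1 values was not tested. Of other cell types, neutrophil markers summed to 0 to 62.0 in the kidney and 3787 to 9917 in the spleen libraries. Below an unadjusted p of 0.05 were 0 of 13 neutrophil markers and 1 of 5 B cell markers, Cd79b, against 3.34% of all genes. In sorted bulk cells, fewer cells of a type and less RNA per cell cannot be told apart.

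**Figure D3:**
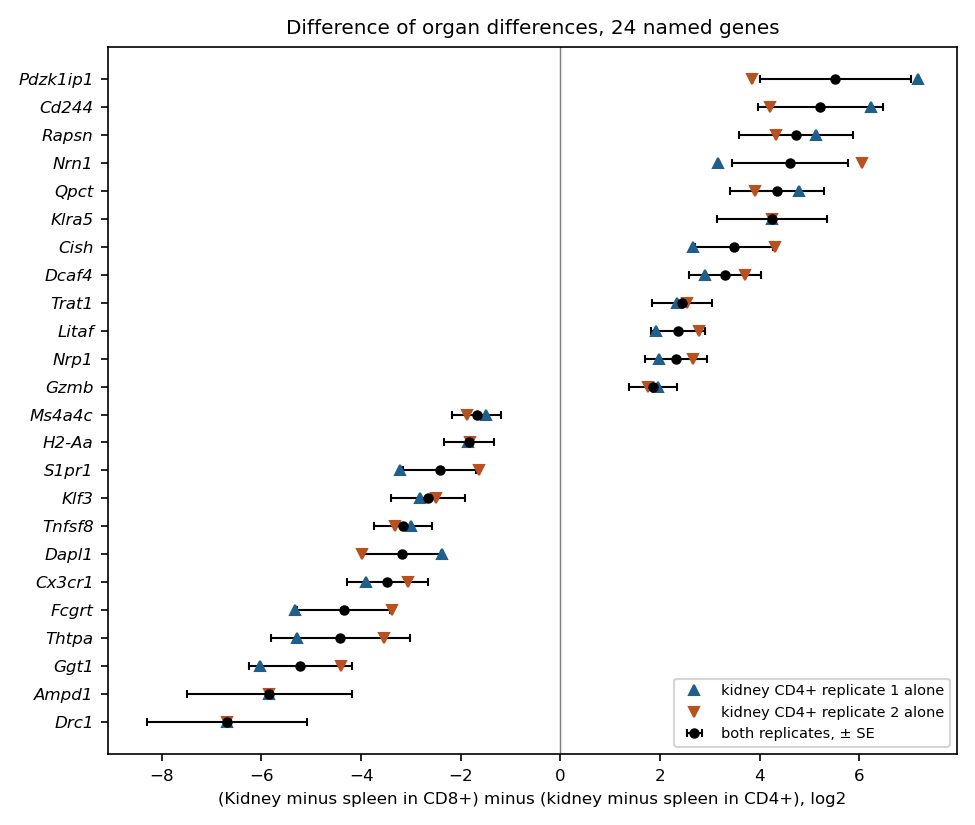
Difference of organ differences (log2) for the 24 named genes, as the pooled value with its SE (black) and as the value with kidney CD4+ replicate 1 alone (blue) and replicate 2 alone (orange). In each of the 24 genes the 3 values lie on 1 side of 0, which the choice of genes that held required.

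Gene lists drawn up for T cells in tissue were then described by counts. Of 35 residency genes tested, 9 had a positive difference at an unadjusted p below 0.05 and 0 a negative one, against 2.17% and 1.17% of all genes, and 10 held, all positive, against 7.35%. The list median was 0.94, against 0.11 over all genes. With kidney CD4+ replicate 1 alone it was 0.52 (all genes -0.10), and with replicate 2 alone 1.19 (all genes 0.17). In the pooled fit, the median organ difference was 1.98 in CD8+ and 0.65 in CD4+ cells. Besides Qpct, Litaf and Nrp1, the 9 positive genes were Cdh1, Rgs1, Rgs2, Isg20, Itgae and Ldlrad4. No member was called by limma, and Litaf and Qpct entered the list with their values known.

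Itgae encodes the integrin chain CD103, which binds E-cadherin on epithelium. It stood at 663 and 614 in kidney CD8+ and 98.3 and 92.6 in spleen CD8+ cells, and at 837 and 103 in kidney CD4+ and 533 and 247 in spleen CD4+ cells. The CD8+ groups did not overlap, the CD4+ groups did, and the difference of 3.03 ± 1.20 was 1.52 with kidney CD4+ replicate 1 alone and 4.53 with replicate 2 alone. Rgs1, a regulator of G protein signals that is high in tissue T cells, stood at 22274 and 21215 in kidney CD8+ and 7328 and 6687 in spleen CD8+ cells, and at 17761 and 10175 in kidney CD4+ and 15078 and 15509 in spleen CD4+ cells (difference 1.82 ± 0.58). Cdh1, E-cadherin itself, stood at 421 and 326 in kidney CD8+, 57.1 and 45.8 in kidney CD4+, 11.6 and 6.04 in spleen CD4+, and 10.8 and 3.82 in spleen CD8+ cells (difference 3.16 ± 0.97). Cdh1 was higher in the kidney in both lineages, and kidney CD8+ cells lay above all other libraries.

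Of 29 genes of lymphoid recirculation tested, 0 had a positive and 8 a negative difference at an unadjusted p below 0.05. The shares over all genes were 2.17% and 1.17%. In the list 10 held, all negative, against 8.09% of all genes. The list median was -1.20 (-1.08 and -1.19 for the replicates alone), against 0.11 over all genes (-0.10 and 0.17). The median organ differences of the list were -1.63 in CD8+ and -0.75 in CD4+ cells. The 8 were Dapl1, Klf3, S1pr1, Klf7, Il7r, Tcf7, Lef1 and Ccr7. Tcf7, a factor of naive and memory T cells, stood at 337 and 475 in kidney CD8+ and 1764 and 2058 in spleen CD8+ cells, and at 1002 and 587 in kidney CD4+ and 1305 and 1471 in spleen CD4+ cells. It was lower in the kidney in both lineages without overlap, and the difference was -1.40 ± 0.54. Il7r, the interleukin-7 receptor chain, stood at 536 and 903 in kidney CD8+ and 986 and 1269 in spleen CD8+ cells, and at 1572 and 1299 in kidney CD4+ and 896 and 822 in spleen CD4+ cells. Il7r was lower in kidney CD8+ and higher in kidney CD4+ cells than in the spleen, with a difference of -1.42 ± 0.53.

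Of 21 TGF-beta response genes tested, 6 were positive and 0 negative at an unadjusted p below 0.05, against 2.17% and 1.17% of all genes. The list median was 0.43 (0.38 and 0.43 for the replicates alone). The 6 were Cish, Litaf, Nrp1, Cdh1, Itgae and Ldlrad4, of which all but Cish are also in the residency list. Litaf and Cish, which is also in the next list, are markers chosen with this difference known. Of 42 genes of cytokine receptor signalling and feedback, 2 were positive (Cish and Il12rb2) and 1 negative (Il7r), with a median of -0.08. That median was -0.45 with kidney CD4+ replicate 1 alone and 0.17 with replicate 2 alone. Il12rb2, a chain of the interleukin-12 receptor, stood at 24.6 and 34.7 in kidney CD8+ cells and at 0.673 to 7.05 in the other 6 libraries.

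Inhibitory receptors and exhaustion genes had 7 positive and 1 negative of 25 tested at an unadjusted p below 0.05. The shares over all genes were 2.17% and 1.17%, and the list median was 1.01. That median was 0.38 with kidney CD4+ replicate 1 alone and 1.75 with replicate 2 alone. The positive ones were Cd244, Cd200r1, Ikzf2, Cd160, Rgs16, Maf and Tigit, and the negative one was Btla. Cd200r1, an inhibitory receptor, stood at 73.8 and 60.1 in kidney CD8+ and 7.41 and 5.73 in spleen CD8+ cells, and at 250 and 69.7 in kidney CD4+ and 186 and 140 in spleen CD4+ cells (difference 3.46 ± 0.95). Ikzf2, which encodes the factor Helios, was lower in the kidney in CD4+ cells, at 339 and 246 against 801 and 429, and higher there in CD8+ cells, at 137 and 119 against 62.6 and 50.6. Its difference was 2.18 ± 0.63. Pdcd1, which encodes the checkpoint receptor PD-1, stood at 5022 and 4567 in kidney CD8+ and 906 and 1011 in spleen CD8+ cells, but at 11103 and 580 in the kidney CD4+ replicates, against 2542 and 2205 in spleen CD4+ cells. The difference for Pdcd1 was 0.09 with kidney CD4+ replicate 1 alone and 4.35 with replicate 2 alone, so that it did not hold.

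At an unadjusted p below 0.05, 2.17% of all genes were positive and 1.17% negative. Cytotoxic granule genes had 3 positive (Gzmb, Gzmk and Rab27a) and 0 negative of 30, with a median of 0.56 (0.51 and 0.64 for the replicates alone). Of the 30, 16.7% held, against 15.4% of all genes. Helper cytokines and regulators had 3 positive (Ikzf2, Ikzf4 and Maf) and 1 negative (Il17a) of 27, with a median of 0.25, which was -0.03 with kidney CD4+ replicate 1 alone and 0.58 with replicate 2 alone. Ikzf2 and Maf were already counted among the inhibitory receptors and exhaustion genes. Maf, a factor of interleukin-producing helper cells, stood at 335 and 178 in kidney CD8+ and 95.6 and 72.6 in spleen CD8+ cells, and at 1588 and 1061 in kidney CD4+ and 1438 and 1406 in spleen CD4+ cells (difference 1.67 ± 0.60). Il17a, outside the naming rule and named after its values were seen, stood at 128 and 113 in kidney CD4+ and 14.4 and 1.54 in kidney CD8+ cells and at 0 in all 4 spleen libraries. Ifng, which encodes interferon-gamma, stood at 13296 and 9958 in kidney CD8+ and 4023 and 3522 in spleen CD8+ cells, and at 4545 and 5586 in kidney CD4+ and 3275 and 3582 in spleen CD4+ cells. It was higher in the kidney in both lineages without overlap, and its difference of 1.06 ± 0.50 had an unadjusted limma p of 0.0642.

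Counts for the other lists follow, where 2.17% of all genes tested were positive and 1.17% negative at an unadjusted p below 0.05. TNF superfamily genes had 1 positive (Tnfsf13b) and 1 negative (Tnfsf8) of 28, genes of the T cell receptor complex 0 and 0 of 16, immediate early factors 0 and 0 of 32, and interferon response genes 1 and 0 of 35. Hypoxia and HIF-1 targets had 2 and 2 of 36, cell cycle genes 1 and 0 of 36, and lipid and endosome genes 2 and 1 of 28, which were the markers Qpct, Litaf and Fcgrt. Of 10 lineage genes, 2 were positive, Itgae and Cd4, the latter at 17.8 and 17.0 in kidney CD8+ and 0 and 3.82 in spleen CD8+ cells. Crem, a cAMP-responsive factor of tissue T cells, was higher in the kidney in both lineages, with 1895 and 3592 against 149 and 166 in CD8+ cells and 4455 and 5593 against 444 and 524 in CD4+ cells. Its organ difference was 4.04 in CD8+ and 3.37 in CD4+ cells, and the difference was 0.67 ± 0.55. Foxp3, the factor of regulatory T cells, was lower in 1 kidney CD4+ library and within the range of the spleen in the other, at 1080 and 340 against 1665 and 1009, and stood at 2.55 to 11.5 in CD8+ cells, with a difference of -0.25 ± 0.93. The sign of the Foxp3 difference turned with a pseudocount of 5.

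**Figure D4:**
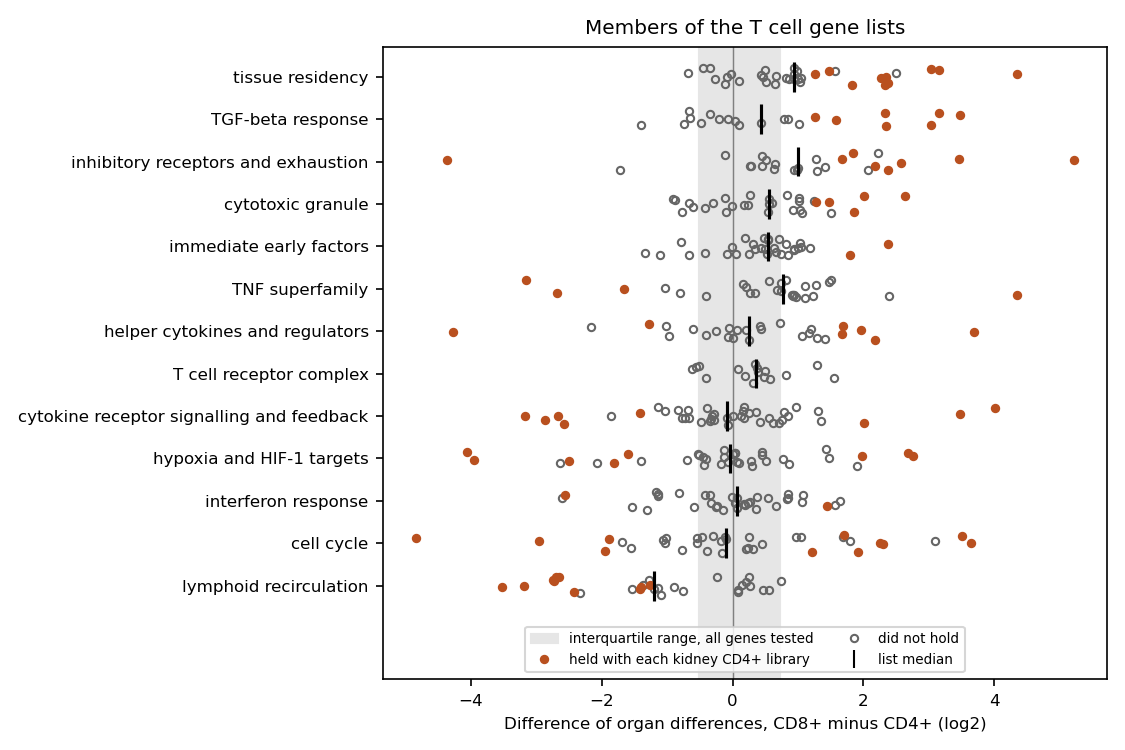
Difference of organ differences (log2, horizontal) for each tested member of 13 T cell gene lists, filled where it held with each kidney CD4+ library, with a bar at the list median and the interquartile range of all genes in grey. The residency list (median 0.94) lies to the right and the recirculation list (median -1.20) to the left of the all-gene median of 0.11.

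The result depended strongly on which kidney CD4+ library was used. With replicate 1 alone, limma called 8 genes at an adjusted p below 0.05, 4 higher (0.0369%) and 4 lower (0.0369%). With replicate 2 alone it called 745, 649 higher (5.98%) and 96 lower (0.885%). Both fits share the other 6 libraries and assume that the lone kidney CD4+ library varies like the other groups, which the pair itself did not. The median of all genes was -0.10 with replicate 1 alone and 0.17 with replicate 2 alone, and 5125 genes (47.3%) changed sign between the replicates. Of the 745, 68 held (9.13%), below the 15.4% of all genes tested.

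The calls with either library alone had 4 genes in common, 50% of the 8 and 0.537% of the 745. Fcgrt and S1pr1 are described above, and Ccr7 and Cd160 were named after their values were seen. Ccr7, the chemokine receptor for entry into lymph nodes, stood at 5452 and 7679 in spleen CD8+ and 327 and 466 in kidney CD8+ cells, against 6302 and 394 in kidney CD4+ and 2173 and 2363 in spleen CD4+ cells. The Ccr7 difference was -5.52 with replicate 1 alone and -1.53 with replicate 2 alone. Cd160, a receptor of cytotoxic cells, stood at 4000 and 2700 in kidney CD8+, 1687 and 1701 in spleen CD8+, 54.3 and 195 in kidney CD4+, and 285 and 357 in spleen CD4+ cells, and its difference was 3.49 and 1.67.

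The 5 markers with replicate 2 alone had limma adjusted p-values of 0.00196 (Litaf), 0.0350 (Qpct), 0.00188 (Cish), 0.00752 (Tnfsf8) and 0.0131 (Fcgrt). With replicate 1 alone they were 0.0911, 0.0984, 0.0966, 0.0984 and 0.0200 in the same order, so that Fcgrt alone of the 5 passed in both. Several genes that differed between the kidney CD4+ libraries did not hold. Cxcr6, the receptor of the chemokine CXCL16, stood at 25829 and 1583 in kidney CD4+, 15250 and 17708 in kidney CD8+, 2426 and 2553 in spleen CD4+, and 2835 and 3678 in spleen CD8+ cells. Its difference was -1.03 with replicate 1 alone and 2.999 with replicate 2 alone. Cd3e, a chain of the T cell receptor complex, stood at 5456 and 637 in the kidney CD4+ replicates and at 4225 to 6826 in the other 6 libraries, and its difference was 0.01 and 3.10. The chains Cd3d and Cd3g went the other way between kidney CD4+ replicates 1 and 2. Cd3d stood at 10077 and 26729 there, and Cd3g at 24538 and 48406. Their differences were 1.19 and -0.22 for Cd3d and 1.30 and 0.32 for Cd3g. Cd8a had a difference of -4.64 with replicate 1 alone, where kidney CD4+ cells stood at 103, and of -0.58 with replicate 2 alone, where they stood at 5.20.

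**Figure D5:**
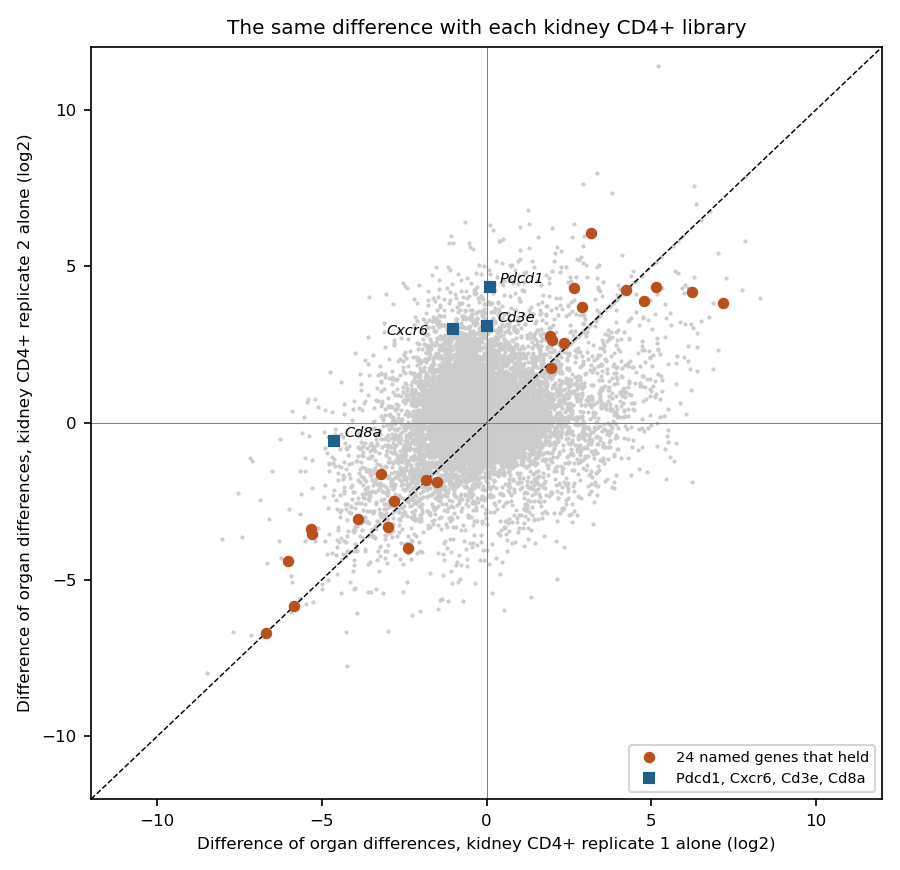
Difference of organ differences (log2) with kidney CD4+ replicate 1 alone (horizontal) and with replicate 2 alone (vertical) for the 10845 genes tested in grey, the 24 named genes that held in orange, and Pdcd1, Cxcr6, Cd3e and Cd8a as blue squares. Cxcr6 lies at -1.03 and 2.999, and Pdcd1 at 0.09 and 4.35, away from the dashed line of equal values.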

How the data were processed

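Kidney and spleen T cells of both lineages were sequenced in 2 libraries per group. The signal values were normalised by the authors, who deposited them as 1 table (mm9; STAR 2.5.3 and TopHat2 2.1.0 per the submitters' processing notes; kit SMART-Seq v4, which does not mark strand, per the labels' protocols). Neither a counting tool nor an annotation is given in the sources used here. Each deposited signal value was a whole number of reads times 1 factor per library (100% of values, tolerance 1e-06), so reads were recovered.

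Genes that reached a level of 10 in 2 or more libraries were fitted with limma 3.58.1 (R 4.3.3) on log2(level + 1) as 4 group means with an intensity trend, 2-sided, with Benjamini-Hochberg adjustment over 10845 genes and calls below 0.05. edgeR 4.0.16 and DESeq2 1.42.0 on the recovered reads, pseudocounts of 5 and 0.5, filters, 2 rescalings, library weights, a replicate block and each library left out were alternatives. The fit was tested on simulated data. Fold changes on this scale understate those of low genes, and the limit given for 0 reads covers counting error only.

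Named genes were the 5 markers, up to 12 per direction with the smallest p that held with a mean of at least 100 in the highest group, up to 3 per gene list and a fixed set. The 12 left out histone genes, receptor segments and models named by number. The members and lists were chosen with earlier results of these data known.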

Additional observations from a re-analysis of the deposited data

How the results depend on the processing

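Of 76 genes followed, 74 kept the sign of the difference in all of the 19 alternatives that gave a value, and 33 were called in at least 1 of them. Foxp3 and Cxcr6 reversed: Foxp3 was -0.25 pooled and 0.22 with a pseudocount of 5, and ranged from -1.08 to 0.58 with each library left out. Cxcr6 was 0.99 pooled, -0.050 in edgeR and -0.013 in DESeq2, and ranged from -1.03 to 2.999 with each library left out. DESeq2 called 7 genes higher and 5 lower, 9 of them named genes. With each library left out, calls ranged from 0 to 649 higher, from 0 to 96 lower and from 0 to 27 among named genes, and only leaving out a kidney CD4+ library gave any. Genes that held, chosen for this check after seeing the data, numbered 1338 positive without a filter, and 320 positive and 343 negative with a level of at least 50, where fewer genes are tested. Without kidney CD8+ replicate 1, 562 negative genes held, and without replicate 2, 1485 did. The cause of these shifts was not tested.

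With the replicate number as a block, limma called 0 genes, with 304 at an unadjusted p below 0.05 against 362 without it. Replicate deviations of different groups correlated at -0.155 to 0.0559. These values cannot tell whether libraries of the same replicate number came from the same mouse or pool. Rescaling alone moved the median of all genes by -0.041 (median of ratios) and -0.025 (TMM). The edgeR and DESeq2 fits, which change the model and the scaling together, moved it by -0.13 and -0.15. The smallest adjusted p was 0.999 in the pooled limma fit and 0.0915 without the intensity trend. Il12rb2, Gys1, Car9 and Hmox1 had no value with the filter at 50.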

Other observations

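Another 3 genes were among the 12 called by DESeq2 but lay outside the naming rule, and are given as values chosen after they were seen. Map6, which encodes a microtubule-stabilising protein, stood at 85.3 and 41.4 in spleen CD4+, 34.8 and 20.8 in kidney CD8+, 14.8 and 9.37 in kidney CD4+, and 0.673 and 0 in spleen CD8+ cells. Its order of the organs was reversed between the lineages, lower in the kidney in CD4+ cells and higher there in CD8+ cells. Amigo3, a leucine-rich repeat membrane protein, stood at 30.3 and 20.8 in kidney CD4+ and 14.1 and 7.64 in spleen CD8+ cells, and at 0 in the kidney CD8+ and spleen CD4+ libraries. The gene 1810011H11Rik stood at 185 and 252 in kidney CD8+ cells and at 4.77 to 28.2 in the other 6 libraries, much like Qpct. Their DESeq2 adjusted p-values were 0.00979, 0.00979 and 0.00532, and the limma adjusted p was 0.999 for each.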
